A study of Bos taurus with 48 samples.

Results

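This report describes the leukocyte transcriptome of beef calves after a week indoors, in the calves weaned at housing and the calves housed with their dams considered jointly. The libraries were chosen by day alone: the d 0 and d 7 libraries of all 12 calves, 24 of the 48 RNA-seq libraries of the series, paired by calf number. Control calves (6 animals: 1755, 1759, 1763, 1789, 1802 and 1803) were housed with their dam. Weaned calves (6 animals: 1758, 1762, 1769, 1770, 1773 and 1809) were separated from the dam and penned with other weaned calves. All 12 were intact males of the breed entered as Continental in the labels (Simmental in the methods), had grazed with their dams since spring birth, and had been vaccinated against respiratory viruses. The d 0 blood was drawn before housing, so every calf served as its own baseline, and both groups share the move indoors, the new diet and the handling. No group stayed at pasture, so housing and the passing of 7 days cannot be told apart.

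The material was total leukocytes, the mixed white cells that remain after red cells are lysed out of jugular blood. In such a mixture neutrophils, lymphocytes and monocytes each contribute transcripts, so fewer cells of a type and less RNA per cell cannot be told apart. Moving, mixing and weaning cattle are known to raise cortisol and catecholamines, which shift neutrophils into the blood and lymphocytes out of it. Immediate early genes such as FOS are switched on within minutes of many stimuli, and interferon-stimulated genes such as DDX58 and CXCL10 report antiviral signalling.

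The 24 libraries held 1992050 to 4119875 counted reads, so a gene at 3 counts lay between 0.728 and 1.51 CPM. CPM is the count per 1000000 reads of the library, with a TMM correction for composition. A change is a log2 ratio of d 7 to d 0 with its standard error from edgeR's quasi-likelihood fit with a term for each calf. A gene is called where the Benjamini-Hochberg adjusted p is under 0.05 over all genes tested. Only 632 of the 14713 genes tested carry a symbol here, because the table gives Ensembl identifiers and symbols came from the study's own lists of genes found to change in these samples, so symbol-bearing genes are not a random share of the transcriptome. No members could be identified for the lists of monocyte, B cell, gamma delta T cell, MHC class I, MHC class II, glucocorticoid or clock genes, and the cellular make-up of the samples therefore cannot be read from markers. The study's blood counts, which include calves not sequenced, had a higher mean neutrophil percentage on d 7 than on d 0 in control calves. In weaned calves it was lower. Lymphocyte percentages moved the other way, and neither was marked as different from baseline on d 7. Monocyte percentage in weaned calves was marked as lower than baseline on d 7. Total leukocyte number on d 7 was marked as lower in weaned than in control calves. The part of these cell counts in the changes was not tested.

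The d 7 libraries of 2 weaned calves went against their calf labels. Over the 100 genes that differed most stably between calves on the other days, 10 of the 12 d 7 libraries correlated best with their own calf, with r from 0.65 to 0.92 over these genes. The d 7 library labelled 1758 had r = 0.39 with its own calf and 0.73 with calf 1770, and the library labelled 1770 had r = 0.26 with its own calf and 0.61 with calf 1758. Both calves were weaned, so an exchange between them would leave the treatment groups unaffected. A change from d 0 to d 7 within these 2 calves may not be within 1 animal. No library was reassigned. The main results are given for the 12 calves as labelled and for the 10 others, a set chosen after the data were seen. Calves 1758 and 1770 were also the only weaned calves whose median changes ran opposite to control calves, over the genes called in those. The 10-calf set therefore leaves out the calves that oppose a shared change. An exchange between these 2 calves would not alter the mean of their changes. On d 0 the library labelled 1758 had r = 0.38 with its own calf and 0.42 with calf 1755, and on d 2, used in the time course alone, the library labelled 1755 had r = -0.18 with its own calf and 0.31 with calf 1769. Each of these matches crosses the treatments. Whether other labels are in error was not tested.

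With all 12 calves, 1 gene was called higher on d 7 and 0 were called lower (0.0068% of genes tested in all). Before adjustment 597 genes had a p under 0.05 (4.06%), of which 278 were higher (1.89%) and 319 lower (2.17%), and a DESeq2 fit called 14. Most genes moved in opposite directions in the treatments: the fitted change had the same sign in weaned and control calves for 3870 genes (26.3%) and opposite signs for 10843 (73.7%). In the control calves 315 genes were called higher (2.14%) and 1474 lower (10%), together 12.2% of genes, and 406 of these (2.76% of genes) changed at least 2-fold. In the weaned calves 0 genes were called by edgeR or DESeq2, with 475 (3.23%) and 342 genes at an unadjusted p under 0.05. The interaction, which tests whether the change differs between treatments, called 0 genes with a smallest adjusted p of 0.081, although 5268 genes (35.8%) had an unadjusted p under 0.05 and DESeq2 called 2315. The control count rested on single calves: 0 genes were called without calf 1755, 1759 or 1763, 1 without calf 1789, and 4742 without the weaned calf 1758, while the pooled count was 8 without calf 1758. It also rested on the pairing, with 1 gene called in control calves when the calf term was dropped.

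The control response was traced calf by calf, with genes chosen in the control calves fitted alone (1074 higher and 2285 lower, 24.3% of 13829 genes). Those genes describe rather than test the control calves. The weaned calves had no part in the choice. In the 6 weaned calves fitted alone, 166 of the 1073 higher genes that could be compared (15.5%) and 202 of the 2284 lower ones (8.84%) had the control sign, with median changes of -0.11 and 0.19. Over all genes the shares were 29.0% of those with a positive and 20.6% of those with a negative control change. In the 4 weaned calves other than 1758 and 1770, 967 of 1072 (90.2%) and 2016 of 2281 (88.4%) had it, with medians of 0.11 and -0.17 against 0.47 and -0.81 in control calves. Over all genes these shares were 69.8% and 69.5%. These 4 calves were picked after the data were seen, and 0 genes were called in them alone (1024 genes, 7.6%, at an unadjusted p under 0.05).

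The spread between calves was wide within each treatment. Over the genes chosen as lower, the median change was -1.66 in calf 1755 and -0.25 in calf 1803 at the ends of the control group. In the weaned group it was 1.43 in calf 1758 and 0.42 in calf 1770, and between -0.23 and -0.05 in the other four. Over the genes chosen as higher, it was -0.75 in calf 1758 and -0.32 in calf 1770, and between 0.02 and 0.22 in the other four. Median levels differed between the sets, at 113 CPM for the higher genes and 33.6 CPM for the lower genes against 26.8 CPM over all genes. The number of genes detected followed this order only in part: from d 0 to d 7 it fell by 645 in calf 1755 and fell by 1117 in calf 1759, and it was 964 higher in calf 1758 and 275 higher in calf 1770. It was 61 higher in calf 1763 and 145 higher in calf 1803, control calves with medians of -0.96 and -0.25 over the lower genes, and 181 higher in calf 1773, a weaned calf with a median of -0.12. The part of library complexity in the response was not tested beyond a fit with the share of reads surviving duplicate removal as a covariate.

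**Figure D1:**
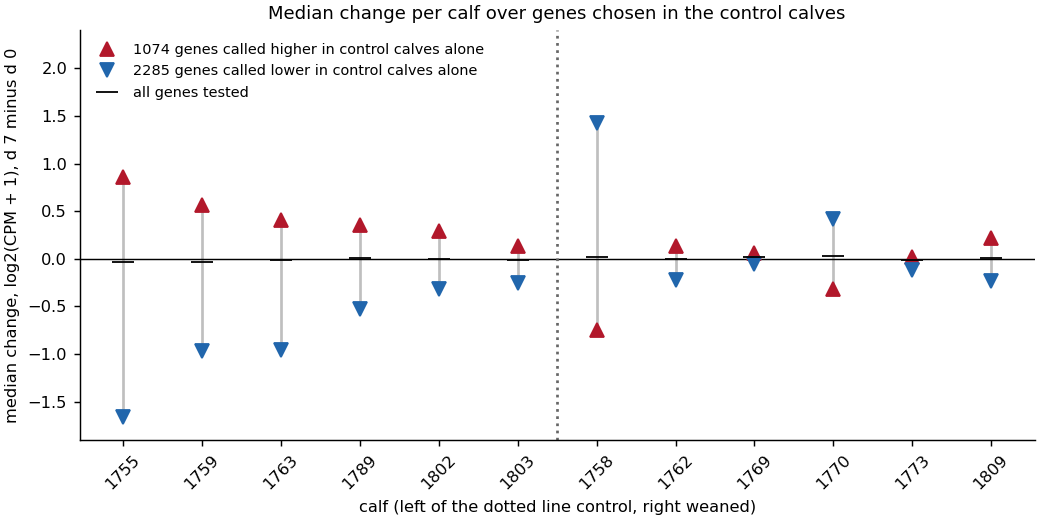
Median change from d 0 to d 7 in log2(CPM + 1) for each calf, over the genes called higher (red triangles) and lower (blue triangles) in the control calves alone, with a black bar for all genes tested. The weaned calves 1758 and 1770 show the 2 sets in the reverse order to the 6 control calves, and the other weaned calves show them in the control order, closer to 0.

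Without calves 1758 and 1770, 614 genes were called higher (4.25%) and 1798 lower (12.5%), 16.7% of the 14440 tested, and 73 (0.506%) changed at least 2-fold. Of these 2412 genes, 2398 (99.4%) had the same sign in both treatments, a share that the choice of genes by their pooled change largely fixes. Of all genes in that fit, 9830 (68.1%) had the same sign. The changes were larger in control calves: the median was 0.47 against 0.19 in the 4 weaned calves for higher genes, and -0.83 against -0.23 for lower genes. On their own the 4 weaned calves gave 0 calls in that fit, with 264 genes (1.83%) at an unadjusted p under 0.05, while the control calves gave 4955 (34.3%). A gene called in the 10 calves is therefore not shown to have changed in weaned calves. The interaction again called 0 genes, with 1902 (13.2%) at an unadjusted p under 0.05 and a smallest adjusted p of 0.361. The count of calls rested on single control calves: it was 19 without calf 1759 and 16 without calf 1763. It was 36 with the surviving share of reads as covariate and 0 with the calf term dropped. Flowcells are a batch: 6 of the 12 calves (1758, 1762, 1769, 1770, 1802 and 1803) had both libraries on the same flowcell, and in them edgeR called 0 genes in control calves and 0 with the treatments pooled (94 and 196 at an unadjusted p under 0.05). In the 4 of them that were not 1758 or 1770 it also called 0 (1071 at an unadjusted p under 0.05). Of the same-flowcell calves only 1802 and 1803 were control calves. They had the smallest control falls over the genes chosen as lower, with medians of -0.32 and -0.25. Same-flowcell values here and below therefore differ from the others in the mix of calves too, and calf mix and flowcell cannot be told apart. Across the 10 fits that each left out 1 more calf, 15 genes were called every time, and the 5 with a symbol were FOSB, CXCL10, DDX58, OLR1 and GZMA.

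**Figure D2:**
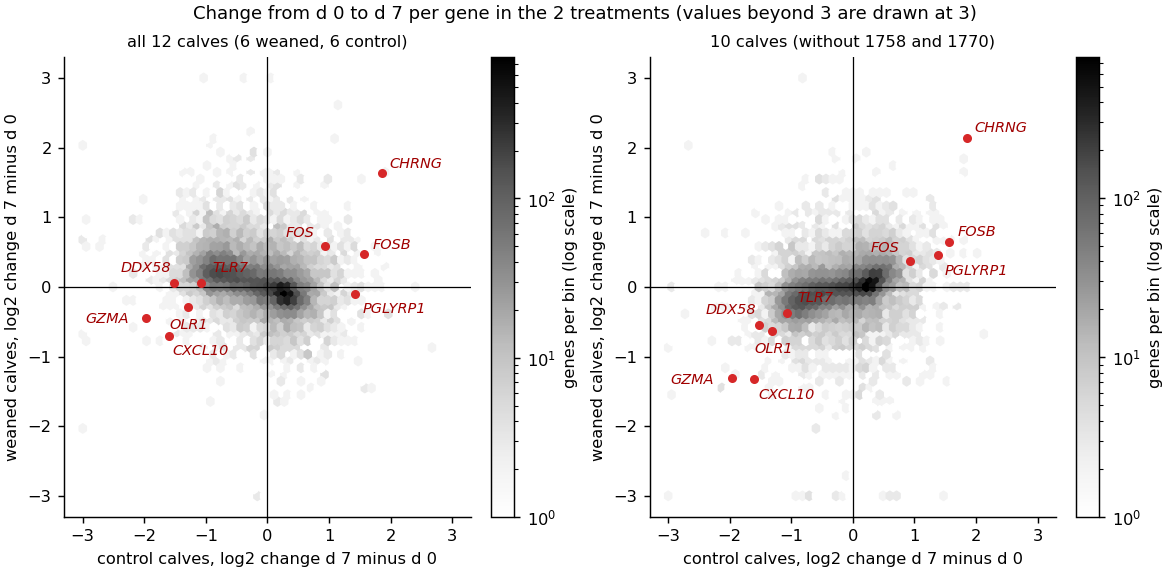
Fitted log2 change from d 0 to d 7 in control calves (x axis) and weaned calves (y axis), with genes per bin as grey shade on a log scale, for all 12 calves (left) and for 10 calves (right). With 12 calves the cloud runs from upper left to lower right, 73.7% of genes having opposite signs, and with 10 calves 68.1% have the same sign.

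The gene called with all 12 calves was ENSBTAG00000010464, for which no symbol was at hand. Its level in control calves was 1.36 to 6.8 CPM on d 0 (median 3.05) and 3.27 to 12.6 CPM on d 7 (median 8.25). In weaned calves it was 2.17 to 5.57 CPM on d 0 (median 3.09) and 4.15 to 14.4 CPM on d 7 (median 7.2). The groups of values overlapped between days, but each of the 12 calves was higher on d 7 than on its own d 0. The log2 change was 1.21 ± 0.18 (SE, n = 12 pairs, adjusted p = 0.0291), with 1.27 in control and 1.14 in weaned calves, and the exact two-sided sign permutation gave p = 0.000488, the smallest that 12 pairs can give. The call was lost when any of 9 calves was left out (adjusted p from 0.0595 to 0.155) and when the calf term was dropped (adjusted p = 0.663), while the change stayed between 1.16 and 1.28 over the fits that left out 1 calf. Across all genes, 13 were higher in every calf (0.0884%) and 1 was lower in every calf (0.0068%).

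The only gene with a symbol that was higher in all 12 calves was GFRA1, which encodes a receptor for the neurotrophic factor GDNF. It lay near the limit of detection: the 6 weaned libraries summed to 10 counts on d 0 and 21 on d 7, and the control libraries to 18 and 26. The change was 0.96 ± 0.3 with an adjusted p of 0.785, and it was not called with 10 calves either (adjusted p = 0.0694). CHRNG, a subunit of the fetal muscle acetylcholine receptor, was as sparse, with summed counts of 13 on d 0 and 43 on d 7 in control calves and 9 and 37 in weaned calves. Its 12-calf change was 1.74 ± 0.43 (adjusted p = 0.618). It was called higher in control calves (1.87, adjusted p = 0.0468) and with 10 calves (1.96 ± 0.42, adjusted p = 0.0197). Of the 37 counts in weaned calves on d 7, 24 came from 1 library.

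Among the immediate early genes, both with a symbol were higher on d 7. FOSB, a partner of JUN in the AP-1 transcription factor, was at 17.8 to 29.0 CPM in control calves on d 0 (median 24.5) and at 36.4 to 169 CPM on d 7 (median 71.3). All 6 control calves on d 7 lay above all 6 on d 0. The share of all genes that separate in this way was not counted, and 5716 of 14713 had an unadjusted p under 0.05 in control calves. Weaned calves were at 17.9 to 35.9 CPM on d 0 (median 25.7) and 19.0 to 52.2 CPM on d 7 (median 38.7), with 4 of 6 calves higher and the days overlapping. The 12-calf change was 1.02 ± 0.23 (adjusted p = 0.514; exact sign permutation p = 0.00244, 10 of 12 calves higher), and FOSB was called in control calves (1.56 ± 0.26, adjusted p = 0.0331) and with 10 calves (1.2 ± 0.21, adjusted p = 0.00906). FOSB was also called with all 12 calves by DESeq2, with all 48 libraries in 1 fit, with that covariate and without calf 1758.

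FOS, the founding member of that family, was at 60.4 to 214 CPM in control calves on d 0 (median 100.0) and 97.6 to 648 CPM on d 7 (median 190.0). In weaned calves FOS was at 65.8 to 170.0 CPM on d 0 (median 101) and 104 to 195 CPM on d 7 (median 165). The days overlapped in both groups, and 5 of 6 calves were higher in each. The 12-calf change was 0.75 ± 0.18 (adjusted p = 0.514; 10 of 12 calves higher, exact sign permutation p = 0.00293). FOS was called in control calves (0.94, adjusted p = 0.0351) and with 10 calves (0.69, adjusted p = 0.0235), and in 12 calves by DESeq2. The immediate early list had 25 genes, of which these were the only ones that could be identified.

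Of the other genes that were higher, LIF, a cytokine of the interleukin-6 family, was at 3.56 to 10.8 CPM in control calves on d 0 (median 5.22) and 5.14 to 22.2 CPM on d 7 (median 16.3). It was called higher in control calves (1.2 ± 0.35, adjusted p = 0.0412) and with 10 calves (0.8, adjusted p = 0.0366). In weaned calves LIF was at 6.86 to 18.7 CPM on d 0 (median 10.7) and 6.98 to 33.5 CPM on d 7 (median 15.5), higher in 3 of 6. RGS2, a brake on G protein signalling, leaned the other way between the groups. All 6 weaned calves were higher, at 2.75 to 12.6 CPM on d 0 (median 4.49) and 7.54 to 21.7 CPM on d 7 (median 13.8), against 4 of 6 control calves, whose medians were 6.0 and 7.13 CPM. Its changes of 1.35 ± 0.34 in weaned calves (adjusted p = 0.938) and 0.84 in 12 calves (adjusted p = 0.785) were not called, and with 10 calves the change was 0.53 (adjusted p = 0.0975). HAL, the enzyme that opens histidine breakdown, was higher in 10 of 12 calves with a change of 0.85 ± 0.32 (adjusted p = 0.785), or 0.7 with 10 calves (adjusted p = 0.126).

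Among neutrophil markers, 5 genes of a list of 31 could be identified, and 3 of these share the symbol of the antimicrobial peptide CAMP, so that reads may be split between copies. All 5 had positive fitted changes, with a median of 0.86 (1.26 in control and 0.42 in weaned calves) against 0.02 over all genes. Of them 3 had an unadjusted p under 0.05, against 1.89% of all genes and 19 of 632 genes with a symbol in that direction. PGLYRP1, a peptidoglycan-binding protein of neutrophil granules, was at 2.09 to 25.4 CPM in control calves on d 0 (median 4.38) and 10.6 to 31.5 CPM on d 7 (median 12.5), higher in 6 of 6. In weaned calves PGLYRP1 had medians of 8.34 and 4.8 CPM and was higher in 3 of 6. PGLYRP1 was called in control calves (1.43 ± 0.36, adjusted p = 0.0339) and with 10 calves (1.03 ± 0.25, adjusted p = 0.0211), but not with 12 (0.68, adjusted p = 0.785), and its change in the 6 same-flowcell calves was -0.13. ALPL, the alkaline phosphatase of neutrophil membranes, was higher in all 6 weaned calves, from a median of 76.6 CPM on d 0 to 97.1 CPM on d 7, and in 3 of 6 control calves, and its 12-calf change of 0.49 ± 0.22 was not called (adjusted p = 0.785), nor was its 10-calf change of 0.54 (adjusted p = 0.0939).

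**Figure D3:**
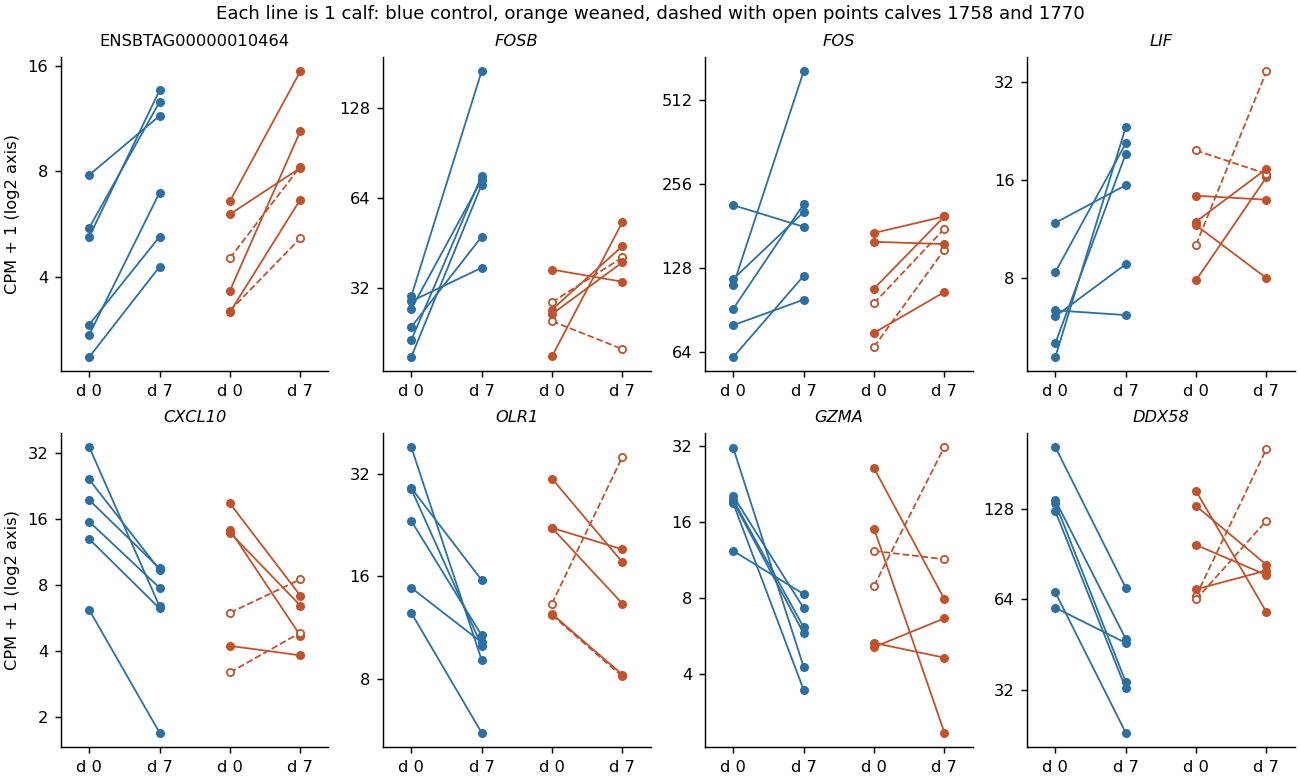
Level on d 0 and d 7 of each calf for 8 genes, as CPM + 1 on a log2 axis, control calves in blue and weaned calves in orange, with dashed lines and open points for calves 1758 and 1770. ENSBTAG00000010464 is higher on d 7 in all 12 calves, and for CXCL10, OLR1, GZMA and DDX58 all 6 control lines go down while at least 1 of the dashed lines goes up.

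Several genes of interferon response and RNA sensing were called lower in control calves and with 10 calves, and none of them with 12 calves in edgeR, although CXCL10, DDX58 and TLR7 had an unadjusted p under 0.05 and DESeq2 called CXCL10. CXCL10, a chemokine induced by interferon that draws activated T cells, was at 5.18 to 33.2 CPM in control calves on d 0 (median 16.6) and 0.7 to 8.55 CPM on d 7 (median 6.1). Weaned calves were at 2.2 to 17.9 CPM on d 0 (median 8.96) and 2.83 to 7.51 CPM on d 7 (median 4.66). The days overlapped, but CXCL10 was lower in 6 of 6 control calves and in the 4 weaned calves other than 1758 and 1770. The change was -1.16 ± 0.27 in 12 calves (adjusted p = 0.514), -1.6 ± 0.33 in control calves (adjusted p = 0.0331) and -1.49 ± 0.2 in 10 calves (adjusted p = 0.00574). The exact sign permutation over all 12 calves gave p = 0.00537. With 10 calves the exact sign permutation gave p = 0.00195, the smallest that 10 pairs can give. CXCL10 rose only in calves 1758 and 1770, which are left out of the 10, so this minimum follows from the choice of calves.

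DDX58, the RIG-I sensor of viral RNA, was at 59.0 to 205 CPM in control calves on d 0 (median 129) and 22.0 to 69.0 CPM on d 7 (median 38.9). Each of the 6 control calves was lower on d 7. Weaned calves were at 62.9 to 146 CPM on d 0 (median 82.1) and 57.0 to 202 CPM on d 7 (median 80.6), the highest value coming from the library labelled 1758. DDX58 changed by -1.51 ± 0.28 in control calves (adjusted p = 0.0331) and by -1.11 ± 0.18 in 10 calves (adjusted p = 0.00802), against 0.05 ± 0.28 in all 6 weaned calves (adjusted p = 0.969). Its edgeR interaction had an adjusted p of 0.081.

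The interferon-stimulated list had 48 genes, of which CXCL10, DDX58 and TNFSF10 could be identified. TNFSF10, the death ligand TRAIL, was at 23.9 to 68.2 CPM in control calves on d 0 and 14.1 to 31.6 CPM on d 7, and had medians of 43.3 and 38.4 CPM in weaned calves. It was called lower in control calves (-1.02, adjusted p = 0.0334) and with 10 calves (-0.68, adjusted p = 0.0219), and 10 of 12 calves were lower. PNPT1, a mitochondrial RNA-degrading enzyme named after its values were seen, changed by -0.88 in 10 calves (adjusted p = 0.018). In all 12 calves its change was -0.51, not called. PNPT1 was lower in all 10, a set chosen after the data were seen. The share of all genes lower in all 10 was not counted. All 3 genes of the list were called lower with 10 calves, against 12.5% of genes tested and 146 of 622 genes with a symbol. With 12 calves 0 were called by edgeR, 2 having an unadjusted p under 0.05. The 3 carry a symbol through the study's lists of changed genes, so they are not a random share of the 48. Of the endosomal RNA sensors, TLR7 was lower in 10 of 12 calves and changed by -1.07 in control calves (adjusted p = 0.0331) and by -0.79 in 10 calves (adjusted p = 0.018), and TLR3 changed by -0.96 (adjusted p = 0.0444) and by -0.64 (adjusted p = 0.0225). In all 12 calves the changes were -0.51 for TLR7 and -0.25 for TLR3, not called. In the 6 same-flowcell calves the changes were 0.11 for TLR7, 0.24 for TLR3, 0.00 for TNFSF10 and -0.21 for DDX58. TLR3 was at 88.7 CPM on d 7 in the library labelled 1758 against 21.7 CPM in the lowest weaned library.

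The cytotoxic list had 25 genes, of which 4 could be identified, and GZMA and KLRD1 were called lower in control calves while KLRC1 (adjusted p = 0.176) and KLRK1 (adjusted p = 0.182) were not. GZMA, the granzyme A protease of killer lymphocytes, was at 11.3 to 30.5 CPM in control calves on d 0 (median 18.5) and 2.46 to 7.3 CPM on d 7 (median 4.96). The days did not overlap, a separation that was not counted over all genes. Weaned calves were at 4.11 to 25.2 CPM on d 0 (median 9.59) and 1.34 to 30.8 CPM on d 7 (median 6.29), the highest again from the library labelled 1758. GZMA changed by -1.97 ± 0.46 in control calves (adjusted p = 0.0334) and by -1.72 ± 0.29 in 10 calves (adjusted p = 0.00906), and by -1.25 in all 12 (adjusted p = 0.785), with -0.49 in the 6 same-flowcell calves. KLRD1, the CD94 receptor of natural killer cells, had a change of -1.57 in control calves (adjusted p = 0.0386) but was not called with 10 calves (adjusted p = 0.0541), and its change in the 6 same-flowcell calves was 0.32. IFNG, the cytokine of these cells, was too sparse for a fold change: the control libraries summed to 10 counts on d 0 and 0 on d 7, and the weaned libraries to 8 and 1.

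The T cell genes identified, 3 of a list of 27, had a median change of -0.44 in 12 calves (-0.97 in control and 0.04 in weaned calves). ICOS, a co-stimulator of activated T cells, and TRAT1, an adaptor of the T cell receptor, each changed by -0.77 with 10 calves (adjusted p = 0.0238 and 0.0287), and neither was called in control calves or in all 12. CTLA4, an inhibitory receptor of T cells, was called in neither fit (adjusted p = 0.0713 in control calves and 0.188 with 10 calves). BTLA, an inhibitory receptor of lymphocytes, changed by -1.15 in control calves (adjusted p = 0.0334) and by -0.7 with 10 calves (adjusted p = 0.0287). In the 6 same-flowcell calves the changes were 0.04 for ICOS, 0.22 for TRAT1 and 0.21 for BTLA.

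OLR1, the LOX-1 scavenger receptor for oxidised lipoprotein, was lower in 11 of 12 calves. It was at 11.5 to 37.4 CPM in control calves on d 0 (median 25.1) and 4.55 to 14.6 CPM on d 7 (median 9.11). In weaned calves OLR1 was at 11.3 to 30.0 CPM on d 0 (median 16.8) and 7.12 to 34.9 CPM on d 7 (median 14.5), and the library labelled 1758 was the one that was higher. The days overlapped in both groups. The change was -0.79 ± 0.23 in 12 calves (adjusted p = 0.785; exact sign permutation p = 0.0151), -1.3 in control calves (adjusted p = 0.0331) and -1.02 ± 0.17 with 10 calves (adjusted p = 0.00906), with -0.35 in the 6 same-flowcell calves.

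HSPH1, a heat shock chaperone, changed by -0.56 in all 12 calves and was not called (adjusted p = 0.785). The change was -1.2 in control calves (adjusted p = 0.0331) and 0.09 in weaned calves (adjusted p = 0.951). With 10 calves it was -0.88 (adjusted p = 0.0144), and in the 6 same-flowcell calves it was -0.06. HSPH1 was lower in 10 of 12 calves, and the 2 that were higher are those left out of the 10. ALDH1A1, which makes retinoic acid, had medians of 1.5 and 0.513 CPM in control and 0.568 and 0.559 CPM in weaned calves on d 0 and d 7. Its change of -2.39 with 10 calves (adjusted p = 0.0211) leaned on 1 weaned d 0 library at 30.2 CPM. None of the collagen genes passed the interaction test in edgeR (adjusted p = 0.081 for COL1A1, 0.0812 for COL1A2 and 0.25 for COL3A1). COL1A1, a chain of type I collagen, was lower in all 6 weaned calves (medians 66.6 and 4.08 CPM) and in 3 of 6 control calves (medians 16.4 and 15.8 CPM), and its 12-calf change of -1.2 ± 0.83 was not called, nor was its 10-calf change of -0.75 (adjusted p = 0.5). DCN, a matrix proteoglycan, was too sparse for a fold change: the weaned libraries summed to 24 reads before housing and 1 a week later, and the control libraries to 9 and 1.

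Lists of genes were read by their counts beside the same counts over all genes. The mitotic cell cycle pathway as the study grouped it held 44 tested genes, with a median change of -0.31 in 12 calves (-1.01 in control and 0.25 in weaned calves) against 0.02 over all genes. With 10 calves 22 of the 44 were called lower and 0 higher, against 12.5% and 4.25% of all genes and 146 and 9 of 622 genes with a symbol. CDK1, the kinase that starts mitosis, changed by -1.05 with 10 calves (adjusted p = 0.0342), BUB1B, a spindle checkpoint kinase, by -0.76 (adjusted p = 0.0338), and CDK7, which activates cyclin-dependent kinases, by -0.85 (adjusted p = 0.0245). CDK7 was lower in 10 of 12 calves and in 6 of 6 control calves. In the 6 same-flowcell calves the changes were -0.06 for CDK1, 0.14 for BUB1B and -0.10 for CDK7. With 12 calves 0 of these 44 genes were called by edgeR and 2 had an unadjusted p under 0.05.

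The pathway that the study's source calls Gene Expression held 23 genes, of which 11 were called lower with 10 calves. They include IARS, the isoleucine tRNA synthetase, which changed by -0.68 (adjusted p = 0.0247) and by -1.1 in control calves (adjusted p = 0.0331). The synthetases for aspartate (DARS), leucine (LARS) and arginine (RARS) were called lower too. Outside that list LRPPRC, a regulator of mitochondrial messenger RNA, changed by -0.75 with 10 calves (adjusted p = 0.0211), and XPO1, the exporter of proteins from the nucleus, named after its values were seen, by -0.77 (adjusted p = 0.0209). In the 6 same-flowcell calves the changes were 0.15 for IARS, 0.19 for LRPPRC and 0.13 for XPO1. The Toll-like receptor pathway had 1 of 11 genes called higher and 5 lower, cytokine receptor interaction 4 of 30 lower, solute carrier transport 3 of 32 lower, hemostasis 1 of 26 lower, and matrix receptor interaction 0 of 17 in either direction with edgeR. Over all genes 12.5% were called lower and 4.25% higher, and of 622 genes with a symbol 146 and 9. Cytokine receptor interaction, solute carrier transport, hemostasis and matrix receptor interaction were below the lower share of symbol-bearing genes. All of the pathway lists were drawn by the study from these samples and are not independent evidence of a direction. Over all 622 genes with a symbol the median was -0.45 with 10 calves, so the lists share their direction with the symbol-bearing genes as a whole.

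**Figure D4:**
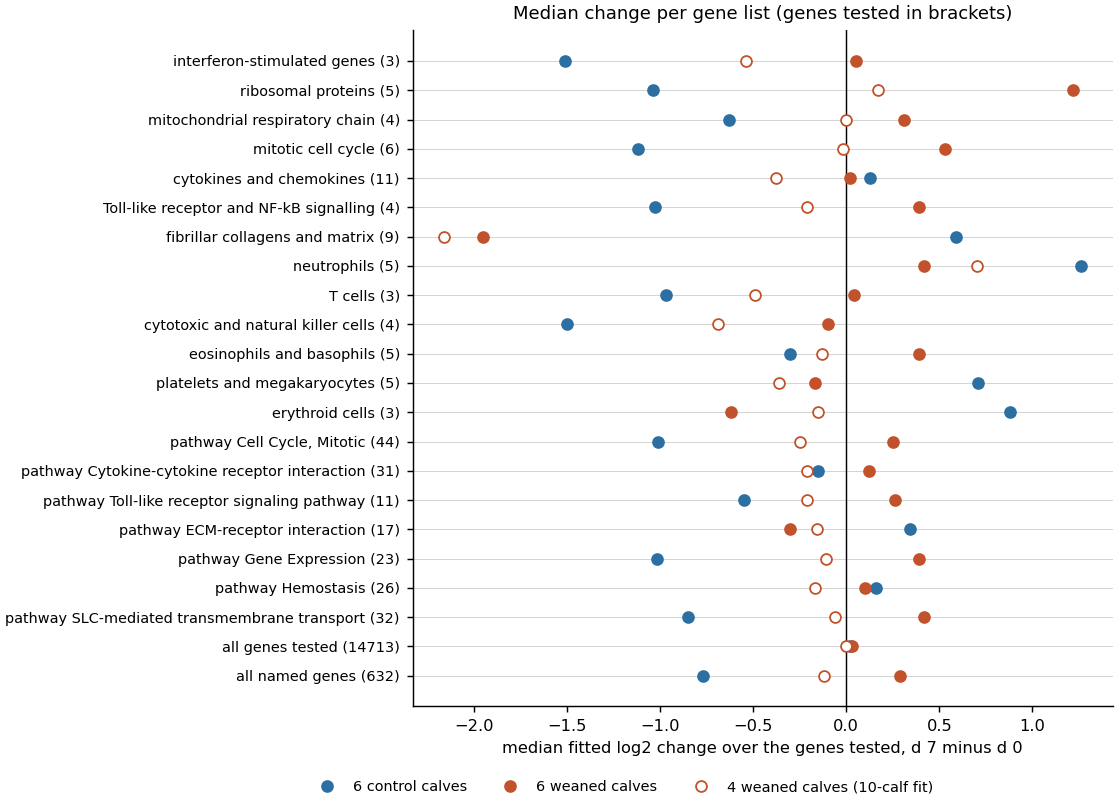
Median fitted log2 change from d 0 to d 7 over each gene list with at least 3 tested genes, for 6 control calves (blue), 6 weaned calves (orange) and the 4 weaned calves other than 1758 and 1770 (open orange), genes tested in brackets. The mitotic pathway lies at -1.01, 0.25 and -0.25, neutrophil markers lie above 0 in all 3 sets, and all genes lie near 0.

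Other lists had few identified members. The 5 ribosomal protein genes had medians of -1.04 in control and 1.22 in weaned calves and the 4 respiratory chain genes -0.63 and 0.31, with 0 called by edgeR in 12 or 10 calves and 0 at an unadjusted p under 0.05 in 12. The 5 eosinophil and basophil, 5 platelet and 3 erythroid genes had 12-calf medians of 0.05, 0.09 and 0.16, also with 0 called and 0 at an unadjusted p under 0.05. Of the 23 genes that the study names for d 7, 0 were called with 12 calves by edgeR (3 higher and 1 lower at an unadjusted p under 0.05). With 10 calves 1 of 21 was called higher and 3 lower, against 4.25% and 12.5% of all genes.

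Among the genes with the smallest interaction p were several that were called lower in control calves and not in weaned calves. Besides DDX58 these include IARS, at 76.0 to 181 CPM in control calves on d 0 (median 109) and 32.7 to 77.3 CPM on d 7 (median 55.2), against medians of 73.7 and 83.0 CPM in weaned calves. In the other direction CDKN1C, an inhibitor of cyclin-dependent kinases, was higher in 6 of 6 control calves (1.25, adjusted p = 0.0334) and lower in 5 of 6 weaned calves, and CLU, a secreted chaperone, changed by 0.98 in control calves (adjusted p = 0.0461) and was higher in 2 of 6 weaned calves. HBB, a hemoglobin chain and a sign of red cell RNA, changed by 0.97 in control calves (adjusted p = 0.047), at medians of 6.37 and 10.2 CPM, and was higher in 1 of 6 weaned calves. In the 6 same-flowcell calves the pooled changes were -0.44 for HBB and -0.61 for CLU, against 0.16 and 0.09 in all 12. The part of red cell RNA in other changes was not tested. None of these passed the adjusted interaction test in edgeR, where the adjusted p of each was 0.081.

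The earlier days give the course of these genes. The d 1, d 2 and d 7 changes share their d 0 libraries and are set side by side only. With 12 calves 0 genes were called on d 1 and 0 on d 2 by edgeR (357 and 297 genes at an unadjusted p under 0.05, 2.41% and 2.02%). Directly, d 7 differed from d 1 in 0 genes and from d 2 in 0 genes by edgeR and by DESeq2, with 881 (5.95%) and 1428 genes (9.69%) at an unadjusted p under 0.05 in edgeR. With 10 calves edgeR also called 0 in both, with 3858 and 2292 genes at an unadjusted p under 0.05. In the order d 1, d 2 and d 7, the changes of ENSBTAG00000010464 were 0.54, 0.76 and 1.21. FOS had 0.44, 0.59 and 0.75, and FOSB had 0.56, 0.56 and 1.02. CXCL10 had -0.31, 0.16 and -1.16, GZMA had -0.44, -0.34 and -1.25, and DDX58 had -0.11, -0.08 and -0.74. The immediate early genes were thus above d 0 at each sampling in the fitted values, and the lower genes were furthest from d 0 on d 7. These genes were named for their d 7 changes, so that the d 7 value is the furthest is largely fixed by the choice.

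**Figure D5:**
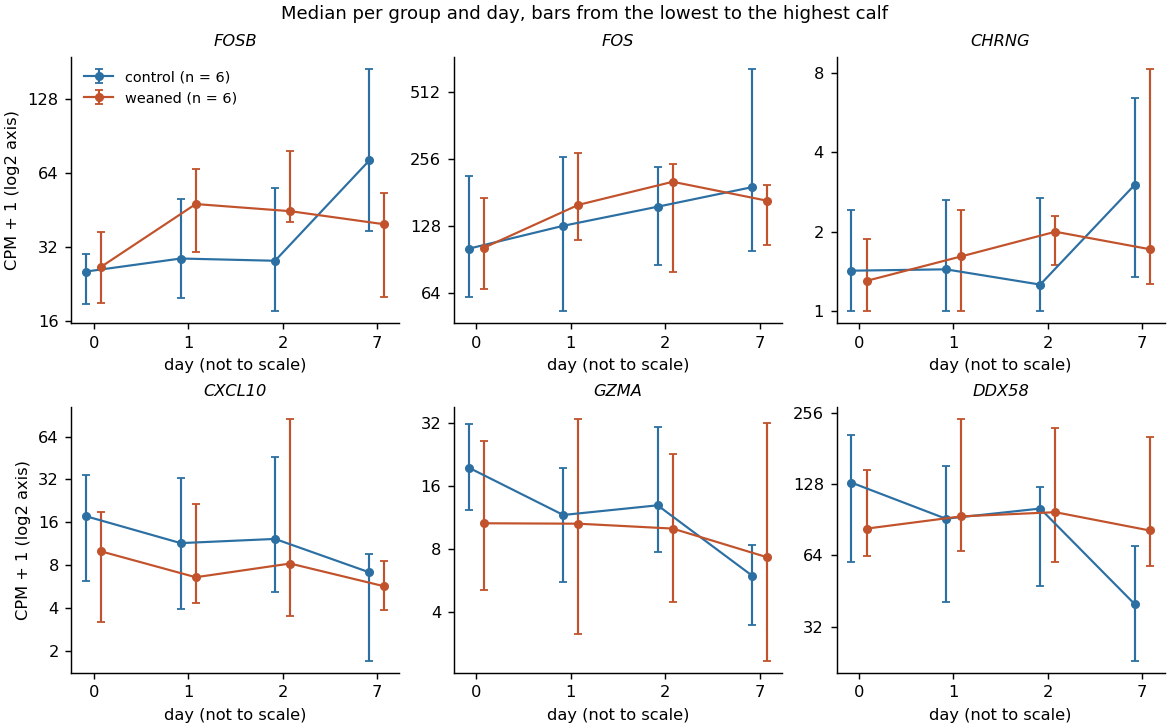
Median level in CPM + 1 (log2 axis) of 6 genes on d 0, 1, 2 and 7 in control (blue, n = 6) and weaned calves (orange, n = 6), with bars from the lowest to the highest calf. FOSB in control calves stands at a median of 71.3 CPM on d 7, and DDX58 in control calves at 38.9 CPM against 129 CPM on d 0, while the weaned bars for DDX58 overlap on all days.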

How the data were processed

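RNA of 48 blood leukocyte samples (12 calves, 4 days) had been sequenced as single-end libraries. The authors deposited 1 table of raw, whole-number counts for 25669 Ensembl genes in the 48 libraries. The submitters' processing notes name CASAVA 1.6, FastQC 0.9.1, Bowtie 0.12.7, HTSeq 0.4.6p2 and edgeR 1.6.12. According to the methods, reads sharing a position were reduced to 1 and only unique, perfect matches to the bovine genome (Btau4.0) were counted. Strand handling is not given in the sources used here, so overlapping and antisense genes cannot be separated. Removing duplicates lowers the counts of highly expressed genes more than those of other genes.

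Comparisons of d 7 with d 0 used edgeR 4.0.16 (R 4.3.3, limma 3.58.1): genes with at least 10 counts in total, TMM scaling, a quasi-likelihood fit with calf as block, and Benjamini-Hochberg adjustment over all genes tested. Treatment effects and the interaction came from a fit with a day term per treatment. Exact two-sided permutations of the 4096 sign patterns used log2(CPM + 1), with a pseudocount of 1. Alternatives were DESeq2 1.42.0, other scaling and filters, no block, a flowcell restriction, a covariate, and leaving out calves. The pairing comes from the labels, where 1 calf number is 1 animal. Deviations from the group means on d 0 and d 7 correlated at -0.44 (calf 1758) to 0.71 (calf 1809), above 0 in 10 of 12 calves. Scripts were tested on simulated data.

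Symbols for 643 bovine identifiers came through human orthologs in the study's tables of genes that changed in these samples, and 13 symbols stand for more than 1 gene. Genes were named by rule: those called, the smallest p in each direction, and up to 5 members a list. The genes the study names for d 7 and those with the smallest interaction p were added. HSPH1, TLR7, PNPT1 and XPO1 were named after their values were seen. Which of the 107 named genes are described was also decided with values known. The comparison, lists and tests were chosen with earlier results of these data known. Columns of fold changes in the study's own tables were not used.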

Additional observations from a re-analysis of the deposited data

Results flagged for a closer look

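Of 159 groups of 6 libraries examined (the genes named in the text, by treatment and day), 12 held a single library so far from the other 5 that the gap exceeded the 95% limit for a sample of that size. About 1 group in 20 would be flagged by chance. On d 7 the library labelled 1758 stood above the other weaned calves for TNFSF10 (93.6 CPM, median of the others 36.2) and TLR3 (88.7 CPM, median 24.3), and held IFNG at 0.268 CPM (median 0.0), which is 1 read. Calf 1789 stood apart from the other control calves on d 7 for CXCL10 (0.7 CPM, median 6.79), CDK7 (1.05 CPM, median 3.77) and CLU (93.4 CPM, median 19.1). DCN was flagged for calf 1770 among weaned calves on d 7 (0.297 CPM, median 0.0) and for calf 1802 among control calves on d 7 (0.342 CPM, median 0.0), each again 1 read.

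CHRNG was high in calf 1762 among weaned calves on d 7 (7.28 CPM, median of the others 0.628). Among weaned calves on d 0, ALDH1A1 was high in calf 1769 (30.2 CPM, median 0.549) and ALPL was low in calf 1773 (28.8 CPM, median 85.4). CDKN1C was high in calf 1802 among control calves on d 0 (15.9 CPM, median 3.01).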

How the results depend on the processing

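The count of genes called with all 12 calves was 1, and it was 14 with DESeq2, 3 with the share of reads kept as covariate, 9 with all 48 libraries in 1 fit, 0 in the 6 calves whose d 0 and d 7 libraries shared a flowcell (fewer samples), and 0 to 8 when 1 calf was left out (8 without calf 1758). Without calves 1758 and 1770, an alternative weighed after the data were seen, it was 2412. The control count of 1789 was 4006 with DESeq2, 4955 without both calves, 2847 with all 48 libraries, 0 within the same flowcell, and 0 to 4742 when 1 calf was left out (0 without calf 1755, 1759 or 1763, 1 without 1789, 3209 without the control calf 1803). The interaction count of 0 was 2315 with DESeq2 and 933 with every gene of at least 1 count, and 0 to 0 when 1 calf was left out. The weaned count and the comparisons of d 7 with d 1 and d 2 were 0 under every alternative run, 0 to 0 with 1 calf left out. The 10-calf count of 2412 was 36 with the covariate, 0 within the same flowcell (4 calves) and 16 to 3178 when 1 calf was left out (19 without calf 1759, 787 without calf 1789, 1372 without calf 1755). The cause of these shifts was not tested.

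Dropping the replicate block that pairs the libraries by calf gave 0 genes called with all 12 calves, 1 in control calves and 0 with 10 calves (570 genes at an unadjusted p under 0.05 with 12 calves and 4362 with 10), and 0 for weaned calves, the interaction, and d 7 against d 1 or d 2.

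Over 40 genes and 875 pairs of gene and alternative, 809 kept direction and side of the threshold, 36 passed it with an unchanged direction, 11 no longer passed it and 19 changed direction, in 15 genes. Only ENSBTAG00000010464 was called in the main fit with all 12 calves, so the 11 pairs that no longer passed all belong to it. For the other genes, keeping the side means staying uncalled. The count of 809 is therefore not a measure of how stable the calls are. Within the same flowcell the changes were 0.00 for TNFSF10, 0.11 for TLR7, 0.24 for TLR3, -0.13 for PGLYRP1, 0.14 for BUB1B, 0.32 for KLRD1, 0.13 for XPO1, 0.15 for IARS, 0.21 for BTLA, -0.61 for CLU, -0.44 for HBB, 0.23 for JAK2, 0.19 for LRPPRC, 0.04 for ICOS and 0.22 for TRAT1. In the same-flowcell set the control calves were 1802 and 1803 alone, so its mix of treatments differs from that of the full set. With 1 calf left out, CLU ranged from -0.10 to 0.27 and HBB from -0.03 to 0.35. At 1992050 to 4119875 reads, genes below about 1 CPM rest on a few reads, and IFNG, DCN, GFRA1 and CHRNG are in that range.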
